A study of Homo sapiens with 22 samples.

Results

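The 74 genes described here encode the SR proteins, the hnRNP proteins and the core proteins of the spliceosome. They were taken from the 59087 gene names of each count table by their symbols: 12 SR proteins (SRSF genes), 25 hnRNP genes, 9 subunits of the splicing factors SF3A and SF3B, 3 U2AF genes, 13 PRPF genes and 12 SNRP genes, leaving out names of pseudogenes. RNA-Seq was performed on HUDEP-2, a human erythroid cell line made immortal with inducible viral genes, whose progenitors proliferate at D0 and are taken through maturation by a change of medium, here to D6. In the H2A.X experiment, libraries came from 2 H2A.X WT and 3 H2A.X KO replicates at each day. In the BAZ1B experiment they came from 3 BAZ1B WT and 3 BAZ1B KO replicates at each day. H2A.X is a histone variant that is phosphorylated at DNA breaks, and BAZ1B is the kinase of its tyrosine near the C terminus. Both knockouts were made with CRISPR/Cas9 and studied as subclones, and the study's figure legends number KO subclones in the same way as the KO libraries. The WT cells of both experiments carry neither deletion.

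Pre-mRNA splicing removes introns in a complex that is built anew on each intron. The U1 particle marks the 5' splice site, U2AF reads the 3' splice site and recruits the U2 particle with its SF3A and SF3B proteins to the branch site, and the U4/U6.U5 tri-snRNP then joins and is rearranged into the catalytic form around PRPF8. SNRP genes encode the proteins of the particles themselves, including the Sm ring that wraps most spliceosomal RNAs. SR proteins mostly promote the use of nearby exons, whereas many hnRNP proteins repress it, and both groups have further roles in RNA export and stability. Erythroblasts change the splicing of many transcripts as they mature, and SF3B1, SRSF2 and U2AF1 are recurrently mutated in myelodysplastic syndromes, which are marked by failing erythropoiesis.

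Total counts ran from 11910141 to 21013004 per library in the H2A.X experiment and from 33199408 to 41273244 in the BAZ1B experiment, and the 74 genes together held 1.54 to 2.27% and 1.80 to 2.08% of them. After the filter on low counts, 69 of the 74 genes were tested in each experiment, among 13236 and 13879 genes. HNRNPCL1, HNRNPCL2, HNRNPCL3, HNRNPCL4 and SRSF12 had too few reads to be tested. Values are normalised counts, which are counts scaled by TMM factors to the mean library of the experiment and which can be compared within an experiment only. Changes are log2 fold changes with standard errors (SE) from edgeR's quasi-likelihood test, and a gene rose or fell where its Benjamini-Hochberg adjusted p over all genes of the experiment was below 0.05. The labels number the libraries as replicates, and the p-values measure the spread between these libraries. In bulk RNA, fewer cells of a type and less RNA per cell cannot be told apart.

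The targeted genes were lower in their KO libraries, although reads from the rest of each gene can still be counted. H2AFX, the older symbol of the H2A.X gene, had 333.1 to 787.2 normalised counts in KO and 1575 to 1969 in WT at D0 (log2 fold change -1.50, adjusted p = 0.0304), and 307.6 to 1050 and 1748 to 2391 at D6 (-1.52, adjusted p = 0.0233). BAZ1B had 6556 to 8349 in KO and 9703 to 9913 in WT at D0 (-0.40, adjusted p = 0.00415), and 6817 to 7377 and 9104 to 9429 at D6 (-0.38, adjusted p = 0.0025). Of 12 erythroid marker genes, all 12 rose from D0 to D6 in BAZ1B WT, BAZ1B KO and H2A.X KO, and 0 of 12 passed the test in the 2 H2A.X WT libraries per day. The H2A.X WT and KO libraries also differed in the balance of long and short transcripts. For each library, the deviation from the mean of its experiment was correlated with transcript length (Spearman). The correlation was -0.63 to -0.37 in the 4 H2A.X WT libraries and 0.17 to 0.50 in the 6 H2A.X KO libraries, over 9906 genes. In the 12 BAZ1B libraries it was -0.093 to 0.086, over 10493 genes. Each experiment has its own mean, so these values cannot tell which genotype departed. The data columns of 5 of the 6 H2A.X KO libraries, all but replicate 3 at D6, carry the mark Redo, and no WT column does, so that genotype and this mark can hardly be told apart in the H2A.X experiment.

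Among the proteins of the splicing machinery, levels per length differed widely within each class. In BAZ1B WT cells at D0, the SR protein SRSF2 was the highest of its class, at 164 ± 3.87 RPKM (reads scaled by transcript length and library size, mean ± SD, n = 3), and SRSF8 the lowest tested, at 10.1 ± 0.128 RPKM. HNRNPA1, a shuttling hnRNP protein, had 442 ± 4.95 RPKM, while its relative HNRNPA1L2 had 0.950 ± 0.156 RPKM. SNRPD2, a protein of the Sm ring, was the highest of all classes at 554 ± 8.12 RPKM, and SNRPN, whose product resembles the Sm proteins SmB and SmB' and is best known from brain, the lowest of its own at 2.60 ± 0.186 RPKM. SF3B5 at 276 ± 6.38 RPKM and SF3B3 at 45.7 ± 2.09 RPKM bounded the SF3 subunits. PRPF19, the ubiquitin ligase of the complex that bears its name, had 129.96 ± 0.683 RPKM and PRPF40B, a relative of a yeast U1 protein, 1.47 ± 0.155 RPKM. U2AF2, the large U2AF subunit, had 167 ± 5.18 RPKM. U2AF1, the small subunit, was listed at 1.80 ± 0.0784 RPKM, from 45 to 73 reads per BAZ1B library and 2 to 32 per H2A.X library. U2AF1 has a near-identical copy, U2AF1L5, which held 0 to 2 reads, so reads that match both may have been left out and the values of U2AF1 are uncertain. Of the 74 genes, 26 have pseudogenes named in the tables, most of them HNRNPA1 with 75, SNRPG with 20, SNRPC with 18 and HNRNPA3 with 16, and 35 overlap an exon of another gene on either strand, so that their counts may hold or lack shared reads.

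Maturation in WT cells of the BAZ1B experiment changed 38 of the 69 genes (55.1%), of which 16 rose and 22 fell from D0 to D6. Of all 13879 genes tested, 68.9% passed in this comparison (33.5% higher and 35.4% lower). Their changes were small, with a median log2 fold change of -0.04 against -0.02 over all genes tested, and 0 of 69 met a stricter cutoff (adjusted p below 0.001 and a log2 fold change beyond 1.5 in either direction), which 11.7% of all genes met. The libraries of the days did not overlap for any of these 38. Among all 69, 21 lay higher at D6 without overlap and 30 lower, against 38.1% and 39.9% of all genes. When libraries were scaled by total counts alone, which moved the median of all genes to -0.18, 49 genes passed, of which 4 rose and 45 fell, and after correcting for transcript length and GC content 44 passed, of which 24 rose and 20 fell. The directions below are therefore relative to the bulk of the transcriptome.

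Of 21 hnRNP genes 7 rose and 7 fell, close to the 33.5% of all genes that rose and the 35.4% that fell. HNRNPA1 had 62877, 62284 and 61489 normalised counts at D0 and 88741, 85528 and 86516 at D6 (0.48, SE 0.0345, adjusted p = 5.14e-08). It is the most abundant of the class per length in these cells, and every D6 library lay above every D0 library. The genes of the HNRNPH family, whose products bind runs of guanines in RNA, did not move together. HNRNPH3 rose from 7335, 7439 and 7376 to 10610, 10809 and 10077 (0.51, SE 0.0364, adjusted p = 5.40e-08). HNRNPH1 rose from 17391, 17607 and 18297 to 21194, 21593 and 21657 (0.27, SE 0.0438, adjusted p = 9.72e-05). HNRNPH2 fell from 3939, 3975 and 4074 to 2769, 2947 and 2584 (-0.53, SE 0.0559, adjusted p = 2.17e-06). Thus the libraries of D0 and D6 separated in opposite directions for 3 genes of the same family. HNRNPLL, known from the alternative splicing of CD45 in lymphocytes, fell from 2497, 2404 and 2415 to 1720, 1708 and 1657 (-0.53, SE 0.0414, adjusted p = 1.33e-07). HNRNPA0 fell by 0.19 (SE 0.0357, adjusted p = 0.000456), a direction that turned to 0.01 with the correction for length and GC content. The low HNRNPA1L2 rose from 39.3, 49.97 and 54.6 to 78.1, 82.6 and 79.6 (0.74).

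Among the SR proteins, 3 of 11 rose and 2 fell, against 33.5% and 35.4% of all genes. SRSF9, a small SR protein with a short RS domain, fell from 4656, 4471 and 4701 to 3780, 3809 and 3453 (-0.32, SE 0.0507, adjusted p = 8.05e-05). SRSF7, which also takes part in mRNA export, fell by 0.12 (SE 0.0370, adjusted p = 0.0128). SRSF4 rose from 4637, 4774 and 4703 to 5377, 5387 and 5572 (0.21, SE 0.0438, adjusted p = 0.000825). All 3 D6 libraries of SRSF4 lay above all D0 libraries, and all 3 of SRSF9 below. SRSF8 rose by 0.20 (SE 0.0538, adjusted p = 0.00505), and SRSF11 by 0.15 (SE 0.0471, adjusted p = 0.0106), a rise that turned to -0.01 when libraries were scaled by total counts.

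For recognition of the branch site and the 3' splice site, 2 of 9 SF3 genes rose and 2 fell, against 33.5% and 35.4% of all genes. SF3A3, a subunit of the SF3A trimer, fell from 10008, 9768 and 9613 to 7309, 7139 and 6956 (-0.46, SE 0.0384, adjusted p = 2.41e-07). SF3B4, which contacts the RNA upstream of the branch site, fell by 0.19 (SE 0.0395, adjusted p = 0.000922). SF3A2 rose by 0.16 (SE 0.0366, adjusted p = 0.00179) and SF3B3 by 0.14 (SE 0.0472, adjusted p = 0.0168), and both changed sign when libraries were scaled by total counts, to -0.0027 and -0.02. The subunits of SF3A thus moved in different directions, with no overlap between the days for SF3A3. U2AF1L4, a weakly expressed paralogue of U2AF1, rose from 97.8, 96.5 and 112.8 to 127.2, 121.1 and 160.2 (0.41, SE 0.147, adjusted p = 0.0241). SF3B1 (0.05, SE 0.0358, adjusted p = 0.245), SRSF2 (-0.06, SE 0.0417, adjusted p = 0.197) and U2AF1 (-0.16, SE 0.157, adjusted p = 0.387) did not pass the test.

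Of the 13 PRPF genes 2 were higher and 6 lower, and of the 12 SNRP genes 1 was higher and 5 lower. Over all genes, 33.5% were higher and 35.4% lower in this comparison. The change of PRPF40B was larger than that of any other of the 69 genes: its normalised counts went from 154.5, 182.7 and 189.5 at D0 to 80.4, 69.0 and 71.5 at D6 (-1.25, SE 0.133, adjusted p = 2.33e-06). This gene was low throughout, and the lowest D0 library still lay well above the highest D6 library. PRPF4, a protein of the U4/U6 particle, fell from 3757, 3733 and 3626 to 2819, 2654 and 2603 (-0.46, SE 0.0374, adjusted p = 1.76e-07). PRPF19 fell from 11479, 11359 and 11411 to 9333, 9116 and 8533 (-0.34, SE 0.0430, adjusted p = 1.07e-05). Both showed no overlap between the days. PRPF39, a relative of a yeast U1 protein, rose (0.22, SE 0.0582, adjusted p = 0.00492). PRPF8, the scaffold of the catalytic centre, was at -0.09 (SE 0.0441, adjusted p = 0.0721).

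Among the particle proteins, SNRPA of the U1 particle was the one that rose, from 6461, 6107 and 5829 to 8076, 7576 and 7664 (0.34, SE 0.0460, adjusted p = 2.16e-05). SNRPB2, its relative in the U2 particle, fell from 3148, 3016 and 3066 to 2600, 2523 and 2286 (-0.32, SE 0.0452, adjusted p = 3.60e-05). The paralogues therefore separated the days in opposite directions. SNRPA1, the partner of SNRPB2 in U2, fell by 0.18 (SE 0.0439, adjusted p = 0.00251), and SNRPD1 of the Sm ring by 0.19 (SE 0.0513, adjusted p = 0.00517).

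In BAZ1B KO cells, maturation again changed 38 of the 69 genes, of which 23 rose and 15 fell, while 67.7% of all genes passed (33.2% higher and 34.5% lower), and again 0 met the stricter cutoff, against 11.5%. In 36 of these 38 the libraries of the days did not overlap, and among all 69 there were 25 such genes higher and 19 lower, against 33.3% and 34.6% of all genes. Scaling by total counts gave 42 genes, of which 3 rose and 39 fell. In all, 27 genes passed in WT and in KO with the same sign, with 13 higher and 14 lower. They were 71.1% of the calls of each genotype, and 0 genes passed with opposite signs. This overlap was not counted over all genes, of which 68.9% passed in WT and 67.7% in KO. PRPF40B fell from 158.6, 178.8 and 170.2 to 88.2, 84.7 and 77.5 (-1.02, SE 0.132, adjusted p = 1.56e-05). HNRNPA1 rose from 62388, 60113 and 58315 to 89749, 86256 and 89514 (0.55, SE 0.0345, adjusted p = 1.49e-08). HNRNPH3 rose by 0.51 (SE 0.0365, adjusted p = 5.71e-08). Both hnRNP genes and PRPF40B separated the days in KO as they did in WT. SNRPA rose by 0.45 (SE 0.0461, adjusted p = 1.90e-06), SF3A2 by 0.27 (SE 0.0366, adjusted p = 2.80e-05), SF3B3 by 0.25 (SE 0.0472, adjusted p = 0.000454) and HNRNPK by 0.22 (SE 0.0375, adjusted p = 0.000205).

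Falls in KO were likewise seen for HNRNPLL (-0.48), HNRNPH2 (-0.48), SNRPB2 (-0.37), SF3A3 (-0.34), PRPF4 (-0.30), SRSF9 (-0.27), PRPF19 (-0.25), HNRNPDL (-0.23), SF3B4 (-0.20), SNRPF (-0.15) and SF3B6 (-0.14). Smaller rises were measured for PRPF39 (0.22), SNRPD3 (0.18), SRSF3 (0.17), SRSF11 (0.15), SF3B2 (0.14), SNRPC (0.14) and SRSF10 (0.08). When libraries were scaled by total counts, these rises turned to -0.0044 for SRSF3, -0.02 for SRSF11, -0.03 for SF3B2, -0.03 for SNRPC and -0.09 for SRSF10. The SE and adjusted p values above are from the main fit, which did not pair the libraries of D0 and D6. Libraries with the same replicate number correlated between the days in every pair. With this number as a block, SRSF10 no longer passed (adjusted p = 0.0661) and U2AF1L4 passed (0.35, adjusted p = 0.0411, against 0.0515 without the block). SRSF4 was the member with the largest rise among SR proteins of WT cells, and its change in KO was 0.06 (adjusted p = 0.209). Whether the difference between KO and WT changed from D0 to D6 was tested directly as an interaction. By edgeR, 0 of 69 genes passed this test, with 14 at an unadjusted p below 0.05 and 2 by DESeq2, and 2.47% of all genes were called (1.58% higher and 0.893% lower), with 0.0288% past the stricter cutoff. HNRNPM was the closest, with a difference of 0.21 (SE 0.0517, adjusted p = 0.0547, and 0.0488 with the replicate block). The difference for PRPF4 was 0.16 (SE 0.0529, adjusted p = 0.144), for SRSF3 0.14 (SE 0.0456, adjusted p = 0.127), for SF3A1 0.13 (adjusted p = 0.24), and for the low SNRPN 0.50 (SE 0.212, adjusted p = 0.258).

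**Figure D1:**
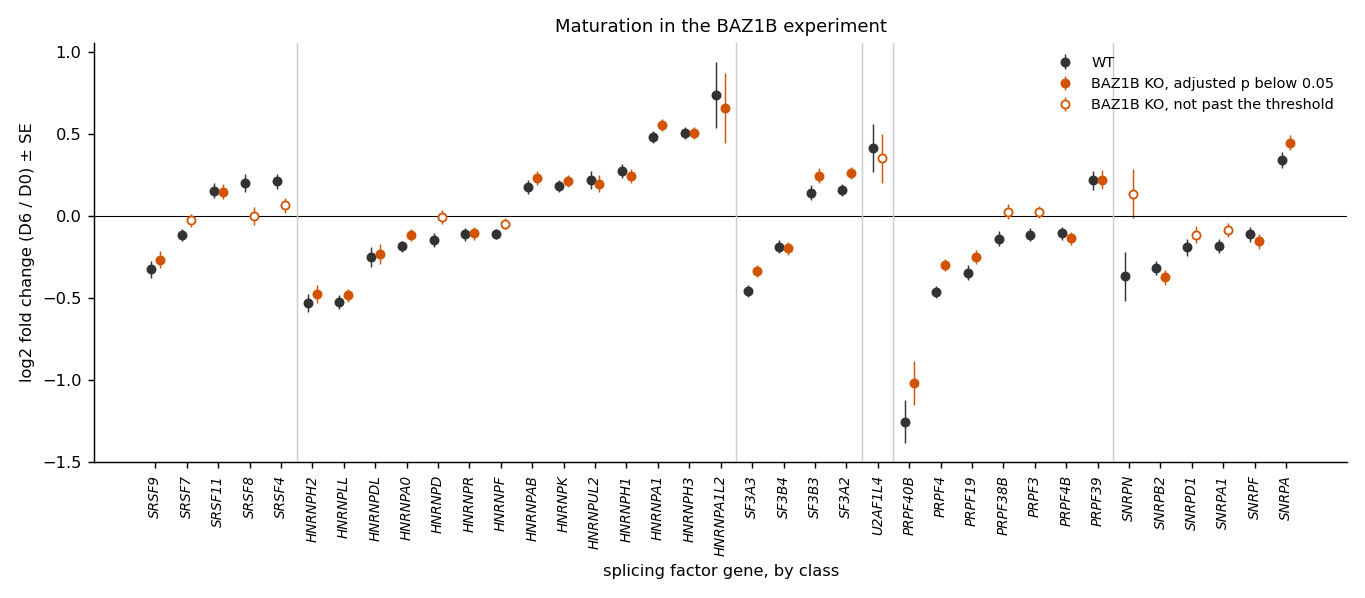
Log2 fold change of D6 against D0, with SE as bars, for 37 of the 38 genes that passed the test in BAZ1B WT cells, shown for WT and for KO (3 libraries per day and genotype; open symbols mark KO changes that did not pass). Genes are arranged by class along the horizontal axis. The lowest points are those of PRPF40B, at -1.25 in WT and -1.02 in KO, and 27 of the 38 passed in both genotypes with the same sign.

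Few of these genes passed between BAZ1B KO and WT. At D0, 0 of 69 passed by edgeR, with 1 at an unadjusted p below 0.05 and 0 by DESeq2, while 3.88% of all genes passed (1.25% higher and 2.64% lower) and 0.36% met the stricter cutoff. KO and WT did not overlap in 6 of the 69 genes, all lower in KO, against 9.76% of all genes higher and 12.7% lower. The gene with the lowest p was SNRPB, the Sm ring protein SmB, with 7678, 7666 and 7743 normalised counts in WT and 6909, 7212 and 7283 in KO (-0.11, SE 0.0438, adjusted p = 0.237). Its KO libraries lay below its WT libraries, by a margin that did not pass the test. The changes of the other classes at D0 were led by U2AF1 (-0.25, SE 0.156), SRSF5 (0.14, SE 0.0839), HNRNPC (-0.08, SE 0.0412), PRPF38A (-0.08, SE 0.0393) and SF3A1 (-0.06, SE 0.0379), with adjusted p from 0.359 to 0.505 for these 5.

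At D6, 5 of 69 genes (7.25%) passed between BAZ1B KO and WT, with 4 higher and 1 lower, and 12.8% of all genes passed (6.87% higher and 5.97% lower). The stricter cutoff was met by 0 of 69 and by 0.749% of all genes. KO and WT did not overlap in 21 genes that were higher and 4 that were lower, against 15.7% and 15.2% of all genes. PRPF3, a protein of the U4/U6 particle, had 2676, 2787 and 2672 normalised counts in WT and 2945, 3041 and 3120 in KO (0.16, SE 0.0377, adjusted p = 0.0129). HNRNPM had 16932, 16645 and 15966 in WT and 18298, 18266 and 18137 in KO (0.14, SE 0.0366, adjusted p = 0.0214). HNRNPA3 had 18085, 18282 and 16758 in WT and 19810, 19468 and 19645 in KO (0.15, SE 0.0401, adjusted p = 0.0269). In each of these genes all KO libraries were above all WT libraries. SRSF3, the smallest SR protein, had 17993, 17848 and 17404 in WT and 18781, 19086 and 19470 in KO (0.11, SE 0.0323, adjusted p = 0.0470). SRSF4 was the gene that fell, with 5377, 5387 and 5572 in WT and 4497, 5134 and 4856 in KO, again without overlap (-0.17, SE 0.0440, adjusted p = 0.0204). SF3B3 (0.15, adjusted p = 0.0529) and SNRPN (0.43, SE 0.152, adjusted p = 0.0884) did not pass, nor did U2AF2 (0.07), SF3B1 (0.01), SRSF2 (0.06), PRPF8 (0.09) or U2AF1 (-0.19). Scaling by total counts or by upper quartiles left 2 genes, 1 higher and 1 lower, DESeq2 called 10 (9 higher) and the correction for length and GC content 16 (15 higher). Without WT replicate 1, 2 or 3 the count was 3, 3 and 1, and without KO replicate 1, 2 or 3 it was 2, 2 and 0.

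Other splicing genes of the BAZ1B experiment were read from lists of partner proteins. Between KO and WT at D0, where 3.88% of all genes passed, CRNKL1, a scaffold protein of the PRPF19 complex, was the gene that passed in any of 7 lists (0.93, SE 0.0606, adjusted p = 1.49e-06), and it was higher by 0.94 at D6 (SE 0.0605, adjusted p = 1.08e-06). At D6, where 6.87% of all genes were higher and 5.97% lower, 3 of 20 proteins of the catalytic step and the PRPF19 complex were higher and 1 lower, which was BUD31 (-0.21, adjusted p = 0.0218). Of 14 SR protein partners, 3 were higher, led by SRRM1 (0.16, adjusted p = 0.0128). Of 12 tested partners of the U2 particle, PHF5A, which binds within SF3B, was lower (-0.16, adjusted p = 0.0226), and of 26 other regulators 2 were higher and 2 lower, led by SYNCRIP (0.17) and MBNL2 (-0.58). None of the 8 LSM proteins, 16 tested SNRNP proteins with their partners or 5 exon junction proteins passed by edgeR at D6. During maturation of WT cells, in which 33.5% of all genes rose and 35.4% fell, 12 of the 20 catalytic and PRPF19 complex proteins rose and 1 fell, led by SNW1 (0.36, adjusted p = 1.88e-06) and CWC22 (-0.25, adjusted p = 0.000142). Of the 14 SR protein partners 5 rose and 4 fell, led by kinases of SR proteins, CLK3 (1.38, SE 0.0660, adjusted p = 1.38e-09) and SRPK2 (-1.43, SE 0.0783, adjusted p = 4.05e-09). Of the 26 other regulators, 12 rose and 6 fell, led by RBM38, an RNA-binding protein of late erythroid splicing (1.97, SE 0.0814, adjusted p = 4.55e-10), and CELF2 (-2.79, SE 0.189, adjusted p = 3.26e-08). The SNRNP list had 4 higher and 4 lower of 16 (SNRNP27 0.73, CD2BP2 -0.42), the U2 partners 4 and 4 of 12 (RBM17 0.50, DDX46 -0.30), the LSM proteins 2 and 1 of 8 (LSM1 0.36, LSM7 -0.22) and the exon junction complex 0 and 2 of 5 (EIF4A3 -0.34).

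In the H2A.X experiment, KO libraries at D0 had lower RNA levels of the small particle proteins and higher RNA levels of a few large splicing factors. Over all 12017 genes with a length, the log2 fold change also ran with transcript length (Spearman 0.54). Genotype and the mark Redo can hardly be told apart here. Of the 69 genes, 4 were higher and 25 lower in KO (29 in all, 42.0%), while 35.1% of all genes passed, 18.4% higher and 16.7% lower. The share of lower genes was thus 36.2% among the splicing genes and the share of higher genes 5.8%, and the median log2 fold change was -0.31 against 0.01 over all genes. KO and WT did not overlap in any of the 29, and among all 69 there were 11 such genes higher and 44 lower, against 36.1% and 34.1% of all genes. The stricter cutoff was met by 0 of 69 and by 0.166% of all genes, which was 22 genes by edgeR against 630 by DESeq2. With libraries scaled by total counts, which moved the median of all genes to 0.17, 11 genes passed, of which 4 were higher and 7 lower. Of all 13236 genes, 3887 passed with that scaling, 2654 higher and 1233 lower. By class, 10 of 12 SNRP genes, 5 of 11 SR genes, 5 of 21 hnRNP genes, 2 of 9 SF3 genes, 2 of 13 PRPF genes and 1 of 3 U2AF genes were lower, and 1 hnRNP, 1 SF3 and 2 PRPF genes higher. The median of the SNRP genes was -0.89, that of the SR genes -0.50, of the hnRNP genes -0.25, of the SF3 genes -0.16 and of the PRPF genes 0.04.

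Among the genes with these changes, the promoters of SNRPC, SNRPF, SF3B5 and PRPF8 are shown because the first 3 are among the genes farthest below WT and PRPF8 is the one farthest above, and because their annotated starts match between RefSeq and the gene annotation. Each line gives the 250 bases before the start from RefSeq (GRCh38.p14), 5' to 3' in the sense of the gene, at chr6:34757255-34757504 (plus strand), chr12:95858702-95858951 (plus), chr6:144095574-144095823 (minus) and chr17:1684868-1685117 (minus). Capitals mark matches to CCGGAAG, the core of the ETS factors, or to CCAAT, the NF-Y box, on either strand.
SNRPC: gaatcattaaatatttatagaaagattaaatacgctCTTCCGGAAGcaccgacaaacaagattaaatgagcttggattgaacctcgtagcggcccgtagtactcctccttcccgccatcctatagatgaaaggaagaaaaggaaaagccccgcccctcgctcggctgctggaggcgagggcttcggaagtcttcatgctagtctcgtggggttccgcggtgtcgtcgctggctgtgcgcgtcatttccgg
SNRPF: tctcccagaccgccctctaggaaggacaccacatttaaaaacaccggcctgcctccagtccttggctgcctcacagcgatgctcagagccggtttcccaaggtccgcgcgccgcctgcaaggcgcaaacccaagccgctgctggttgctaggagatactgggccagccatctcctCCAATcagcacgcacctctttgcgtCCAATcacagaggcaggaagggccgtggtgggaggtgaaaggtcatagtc
SF3B5: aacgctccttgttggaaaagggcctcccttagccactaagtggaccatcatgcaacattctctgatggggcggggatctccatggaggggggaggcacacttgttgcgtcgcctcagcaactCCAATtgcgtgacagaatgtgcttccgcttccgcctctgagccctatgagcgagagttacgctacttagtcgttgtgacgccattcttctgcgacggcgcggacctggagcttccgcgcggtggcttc
PRPF8: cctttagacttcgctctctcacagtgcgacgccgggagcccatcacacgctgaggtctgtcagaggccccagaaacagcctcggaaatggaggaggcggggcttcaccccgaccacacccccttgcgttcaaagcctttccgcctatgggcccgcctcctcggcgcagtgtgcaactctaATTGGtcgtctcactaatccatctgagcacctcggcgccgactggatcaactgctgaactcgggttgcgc
In SNRPC the match to CCGGAAG and that of the other strand overlap, 211 and 214 bases before the start. SNRPF holds CCAAT 75 and 50 bases before the start, SF3B5 has it at 128 bases, and PRPF8 has ATTGG, its reverse complement, at 70 bases. Of the 74 genes, 65 had an entry in the RefSeq table, of which 28 start within 20 bases of the annotated gene start. CCGGAAG stood in 21 of these 65 promoters (32.3%) and in 8.82% of all 27305 promoters of the same length, with 7 of 11 SNRP and 6 of 8 SF3 promoters but 3 of 23 hnRNP promoters. CCAAT stood in 28 of 65 (43.1%), against 33.0% of all, including 15 of 23 hnRNP promoters. CACGTG, the E-box, stood in 7 of 65 (10.8%), against 6.49%, and the GATA motif AGATAA in 0 of 65, against 9.37%. Among genes lower in H2A.X KO at D0, 10 of 22 promoters held CCGGAAG and 9 held CCAAT, and among the tested genes that did not pass, 11 and 16 of 36 did. At D6 these motifs stood in 7 and 8 of 18 promoters of lower genes, and in 13 and 17 of 38 that did not pass. These are matches of letters in the given window only.

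The core of the particles was led by SNRPC, which stabilizes U1 on the 5' splice site, and by the Sm ring. SNRPC had 4541 and 7427 normalised counts in WT and 2751, 2842 and 2856 in KO (-1.09, SE 0.228, adjusted p = 0.00918). SNRPF had 2875 and 6006 in WT and 1610, 1671 and 1725 in KO (-1.41, SE 0.320, adjusted p = 0.0111). SNRPD1 had 5417 and 9931 in WT and 2511, 2706 and 3217 in KO (-1.45, SE 0.333, adjusted p = 0.0116). In these 3 genes WT replicate 2 was far above WT replicate 1, and the KO libraries lay close together below both. The other SNRP genes that fell were SNRPE (-1.35), SNRPA1 (-0.93), SNRPG (-0.92), SNRPA (-0.86), SNRPB (-0.77), SNRPD2 (-0.73) and SNRPB2 (-0.54). SF3B5, a small subunit of SF3B, had 4367 and 7284 in WT and 2610, 2902 and 2688 in KO (-1.09, SE 0.211, adjusted p = 0.00784), and SF3B6, which sits at the branch site, had 2149 and 3688 and then 1832, 1835 and 1753 (-0.69, SE 0.208, adjusted p = 0.0286). SF3B1, the large subunit around which SF3B folds, had 6046 and 4811 in WT and 7259, 7399 and 7476 in KO (0.44, SE 0.144, adjusted p = 0.0376), a direction that turned to -0.24 with the correction for length and GC content. That correction left the 69 genes with a Spearman correlation between log2 fold change and transcript length of -0.34 at D0 and -0.42 at D6, against -0.002 and 0.004 over all genes, and the corrected changes of these genes thus still ran with length, in the other direction.

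PRPF8 had 5385 and 3222 normalised counts in WT and 9629, 9121 and 8959 in KO (1.1, SE 0.255, adjusted p = 0.0119). PRPF4B, a kinase of the tri-snRNP, had 2564 and 1812 in WT and 3398, 3407 and 3429 in KO (0.64, SE 0.167, adjusted p = 0.0171), which turned to -0.14 with the correction for length and GC content. PRPF31, a protein of the U4/U6 particle that is mutated in inherited retinal degeneration, was lower, with 2400 and 2998 in WT and 1422, 1653 and 1623 in KO (-0.79, SE 0.224, adjusted p = 0.0235). The 2 WT libraries of PRPF8 differed from each other, and all KO libraries lay above both. PRPF6, which bridges the tri-snRNP, was lower as well (-0.39, SE 0.128, adjusted p = 0.0402).

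The 5 SR genes that fell at D0 did so by -0.60 to -0.83. SRSF9 had 2706 and 4026 in WT and 2000, 1931 and 2062 in KO (-0.75, SE 0.194, adjusted p = 0.0165). SRSF6 had 4333 and 4648 in WT and 2695, 2575 and 2679 in KO (-0.76, SE 0.206, adjusted p = 0.0195). SRSF5 had 5364 and 6121 in WT and 3172, 3073 and 3412 in KO (-0.83, SE 0.233, adjusted p = 0.0216). The WT libraries of SRSF6 and SRSF5 were closer together than those of SNRPC, SNRPF and SNRPD1. SRSF2 had 7673 and 7731 in WT and 4897, 5035 and 5340 in KO (-0.60, SE 0.207, adjusted p = 0.0467), and the fifth was SRSF3 (-0.65). Among the hnRNP genes, HNRNPUL1, a relative of HNRNPU with a role in the DNA damage response, was higher, with 7113 and 5498 in WT and 10007, 9819 and 9305 in KO (0.62, SE 0.178, adjusted p = 0.0234). HNRNPAB had 10562 and 13253 in WT and 7327, 7350 and 7721 in KO (-0.67, SE 0.155, adjusted p = 0.0117). HNRNPM (-0.65, SE 0.182, adjusted p = 0.0218), HNRNPA1 (-0.51, SE 0.154, adjusted p = 0.0288), HNRNPDL (-0.75) and HNRNPA0 (-0.36) were lower too. U2AF1L4 was lower (-1.18, SE 0.415, adjusted p = 0.0488) from few reads, at 80.9 and 55.0 in WT and 26.2, 26.6 and 37.0 in KO, and U2AF1 did not pass (0.63, SE 0.736, adjusted p = 0.521).

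**Figure D2:**
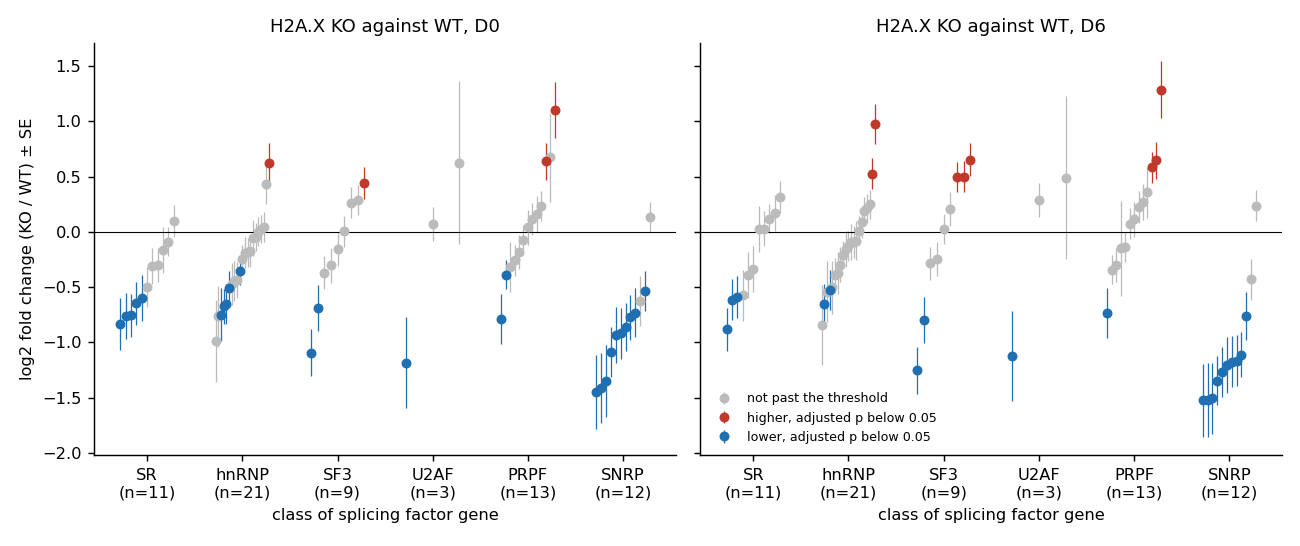
Log2 fold change of H2A.X KO against WT, with SE as bars, for the 69 tested genes by class at D0 and D6 (red higher, blue lower, grey not past the threshold; 3 KO and 2 WT libraries a day). The SNRP genes sit at medians of -0.89 and -1.19, with 10 of 12 lower at each day, against 16.7% and 20.9% of all genes.

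These calls rested on few WT libraries, and leaving out 1 of them leaves a single WT library at that day. The share of all genes that passed in the fits below is not given. Their counts therefore cannot tell the splicing genes from the whole of the genes. Without WT replicate 2 at D0, 0 of 69 genes passed by edgeR, with 13 at an unadjusted p below 0.05, and SNRPC was at -0.69 (adjusted p = 0.121), SF3B5 at -0.68 (adjusted p = 0.0982) and PRPF8 at 0.78 (adjusted p = 0.133). Without KO replicate 1, 2 or 3 at D0, 11 genes passed in each case, and without WT replicate 1, 32.

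At D6, 27 of the 69 genes (39.1%) separated H2A.X KO from WT, 8 higher (11.6%) and 19 lower (27.5%), while 43.1% of all genes passed, 22.2% higher and 20.9% lower. The median log2 fold change was -0.15 against -0.01 over all genes, and KO and WT did not overlap in any of the 27, nor in 16 genes higher and 30 lower among all 69, against 31% and 32.3% of all genes. The stricter cutoff was met by 0 of 69 and by 0.151% of all genes, which was 20 genes by edgeR against 903 by DESeq2. With the p left unadjusted, as the study's legends write it, SNRPD1, SNRPE and SNRPF met it, with log2 fold changes of -1.51 to -1.52, and so did 5.52% of all genes, while 0 of 69 met it by DESeq2. In all, 20 genes passed at both days with the same sign, 4 higher and 16 lower. They were 69.0% of the calls at D0 and 74.1% of those at D6. This overlap was not counted over all genes, of which 35.1% passed at D0 and 43.1% at D6. SNRPD2 had 9763 and 12820 normalised counts in WT and 3825, 4282 and 5226 in KO (-1.34, SE 0.223, adjusted p = 0.00383). SNRPC had 5739 and 6889 in WT and 2441, 2130 and 3293 in KO (-1.27, SE 0.228, adjusted p = 0.0042). SNRPB had 5081 and 6228 in WT and 2327, 2228 and 3298 in KO (-1.11, SE 0.204, adjusted p = 0.00435). KO replicate 3, which lacks the mark Redo, was the highest KO library in all 3 and still lay below both WT libraries. SNRPE (-1.52), SNRPD1 (-1.52), SNRPF (-1.51), SNRPA1 (-1.20), SNRPG (-1.17), SNRPN (-1.16) and SNRPA (-0.76) were lower as well, which makes 10 of 12 SNRP genes, with a median of -1.19.

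SF3B5 had 5244 and 7039 in WT and 2489, 2412 and 2829 in KO at D6 (-1.25, SE 0.211, adjusted p = 0.0039). SF3B6 was at -0.79 (SE 0.208, adjusted p = 0.0131), which turned to 0.07 with the correction for length and GC content. SF3B1 had 5068 and 4800 in WT and 7582, 8407 and 7305 in KO (0.65, SE 0.145, adjusted p = 0.00702), turning to -0.15 with that correction. As at D0, no KO library of SF3B1 overlapped with WT. SF3A1 (0.50, SE 0.135, adjusted p = 0.0153) and SF3B3 (0.50, SE 0.142, adjusted p = 0.0179) were higher, the latter turning to -0.36 under the correction. PRPF8 had 4517 and 3300 in WT and 11144, 10115 and 7300 in KO (1.28, SE 0.257, adjusted p = 0.0051). Its lowest KO library was replicate 3, which lacks the mark Redo. PRPF4B was higher by 0.65 (SE 0.167, adjusted p = 0.0124), turning to -0.27 with the correction. PRPF31 was lower (-0.73, SE 0.225, adjusted p = 0.0248).

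Of the SR genes, 3 of 11 were lower at D6, against 20.9% of all genes. SRSF9 had 3050 and 3082 in WT and 1506, 1452 and 2037 in KO (-0.88, SE 0.195, adjusted p = 0.0069), with both WT libraries nearly equal and all KO libraries below them. SRSF7 (-0.61, SE 0.183, adjusted p = 0.0223) and SRSF3 (-0.59, SE 0.192, adjusted p = 0.0308) fell too, and SRSF2 was at -0.39 (SE 0.208, adjusted p = 0.152). Of the hnRNP genes, HNRNPUL1 had 5325 and 5083 in WT and 10966, 11391 and 8263 in KO (0.97, SE 0.180, adjusted p = 0.00446). HNRNPK, which binds stretches of cytosines and is known in erythroid cells for silencing the mRNA of ALOX15, had 13730 and 12283 in WT and 19105, 19695 and 17449 in KO (0.53, SE 0.136, adjusted p = 0.0124). Both were above WT in every KO library. HNRNPM (-0.65, SE 0.182, adjusted p = 0.017) and HNRNPUL2 (-0.53, SE 0.180, adjusted p = 0.037) were lower. U2AF1L4 was lower (-1.12, SE 0.406, adjusted p = 0.0464), and U2AF1 was at 0.49 (SE 0.739, adjusted p = 0.609).

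**Figure D3:**
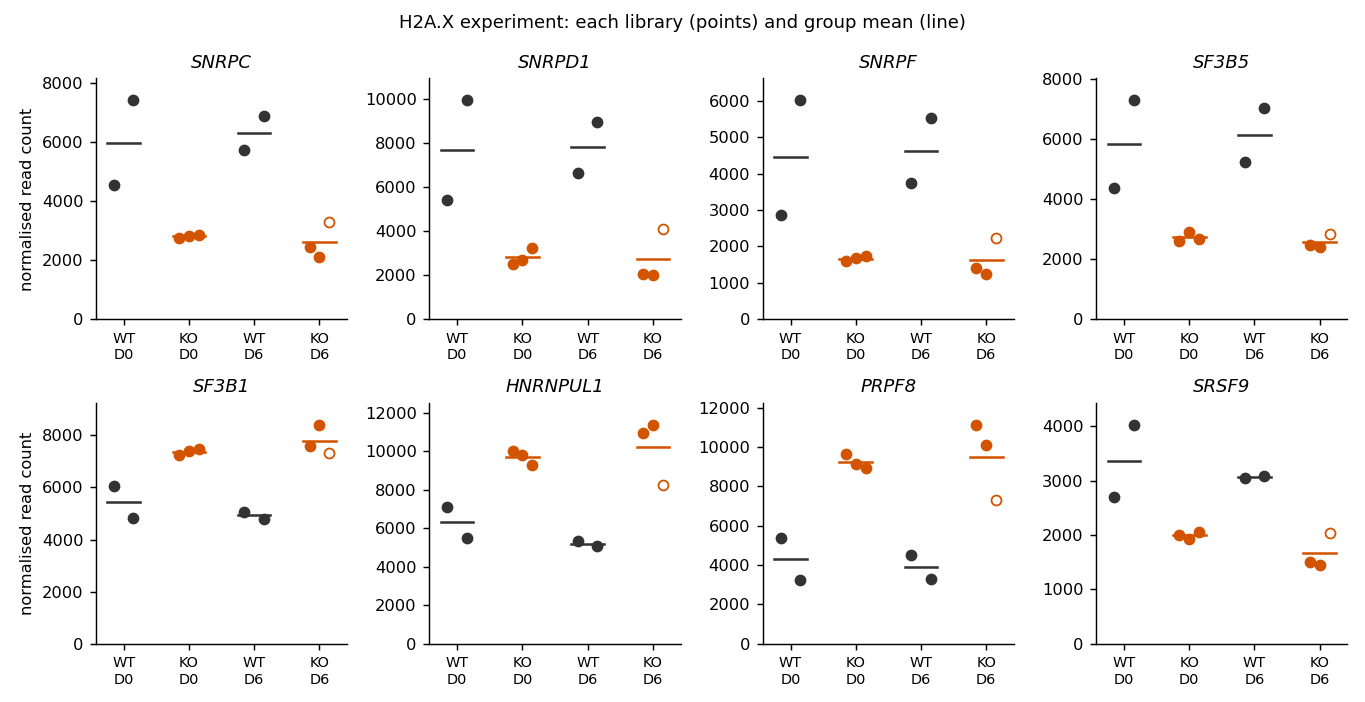
Normalised counts per library in the H2A.X experiment for SNRPC, SNRPD1, SNRPF, SF3B5, SF3B1, HNRNPUL1, PRPF8 and SRSF9 (black WT, orange KO, open symbol the KO library at D6 without the mark Redo, line the group mean). PRPF8 lies at 3222 to 5385 in WT and 7300 to 11144 in KO, and SNRPC at 4541 to 7427 in WT and 2130 to 3293 in KO.

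Without WT replicate 2 at D6, 0 of 69 genes passed by edgeR, with 20 at an unadjusted p below 0.05, and SNRPD2 was at -1.11 (adjusted p = 0.0626) and PRPF8 at 1.11 (adjusted p = 0.0708). With KO replicate 3, the one without the mark Redo, as the single KO library of D6, 0 of 69 passed, with 23 at an unadjusted p below 0.05, and SNRPD2 was at -1.1 (adjusted p = 0.0626), SNRPC at -0.93 (adjusted p = 0.0694) and PRPF8 at 0.91 (adjusted p = 0.0794). In both fits the lone library of its group was taken to vary like the other groups. The share of all genes that passed in them is not given, so these counts do not single out the splicing genes. With libraries scaled by total counts, 8 genes were higher and 12 lower at D6, while 3048 of all 13236 genes were higher and 1986 lower. The interaction of genotype and day passed for 0 of 69 genes by edgeR, with 1 at an unadjusted p below 0.05 and 1 by DESeq2, and 1.34% of all genes were called (0.302% higher and 1.04% lower). HNRNPK had the lowest p of the interaction (0.48, SE 0.190, adjusted p = 0.258).

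The genes that were lower in H2A.X KO had mostly short transcripts and those that were higher long ones. Over the 69 genes, the log2 fold change had a Spearman correlation of 0.57 with transcript length at D0 and 0.61 at D6, and over all 12017 genes with a length the correlations were 0.54 and 0.60, close to the values of the splicing genes. Genes are not independent replicates, and these correlations are descriptions. SNRPC has a transcript of 806 bp, SNRPF one of 452 bp and SF3B5 one of 690 bp, whereas those of SF3B1 and PRPF8 hold 6463 and 7280 bp. Within a library the ratio of raw counts of PRPF8 to SNRPC needs no scaling. It was 0.434 to 1.19 in the 4 H2A.X WT libraries. It was 3.14 to 4.75 in the 5 KO libraries marked Redo and 2.22 in the KO library without the mark. The 12 BAZ1B libraries lay at 3.42 to 4.01, within the range of the H2A.X KO libraries. The ratio of SF3B1 to SF3B6 was 1.20 to 2.81 in H2A.X WT and 3.97 to 5.02 in the BAZ1B libraries. In H2A.X KO it was 3.63 to 4.37 in the libraries marked Redo and 3.43 in the one without the mark. PRPF8 and SF3B1 were called higher and SNRPC and SF3B6 lower between H2A.X KO and WT. The separation of H2A.X WT from KO by these ratios therefore follows from the choice of genes. The mark Redo and the genotype can hardly be told apart in these ratios, since only 1 KO library lacks the mark.

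**Figure D4:**
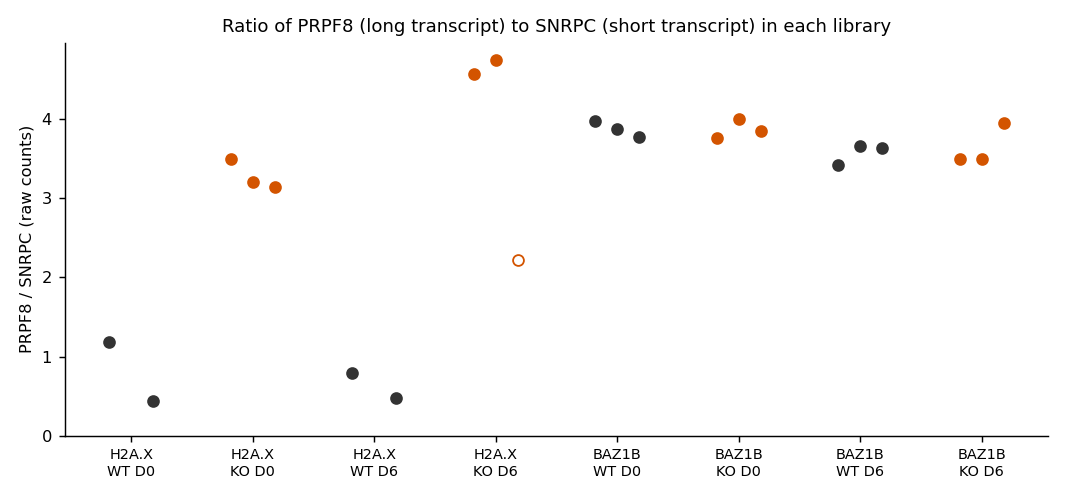
Ratio of the raw counts of PRPF8 to those of SNRPC in each of the 22 libraries. The 4 H2A.X WT libraries lie at 0.434 to 1.19, the 6 H2A.X KO libraries at 2.22 to 4.75 and the 12 BAZ1B libraries at 3.42 to 4.01.

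Correcting the libraries for length and GC content gave 25 genes at D0 (1 higher, 24 lower) and 26 at D6 (6 higher, 20 lower), but these were partly other genes. Of all 12017 genes in this fit, 2681 passed at D0 (1110 higher, 1571 lower) and 2518 at D6 (1201 higher, 1317 lower). At D0, 13 of the 29 calls were kept with the same sign and 12 new genes passed. The kept ones were the SNRP genes SNRPC (-0.42), SNRPF (-0.77), SNRPE and SNRPD1, together with SF3B5 (-0.39), PRPF6, PRPF8 (0.47), SRSF3, SRSF6 (-1.16), HNRNPA0, HNRNPA1 (-0.81), HNRNPDL and HNRNPM. At D6, 9 of the 27 calls were kept and 17 were new, and the kept ones were HNRNPK (0.36), HNRNPUL1 (0.77), HNRNPUL2, PRPF8 (0.61), SNRPD1, SNRPE, SNRPN, SRSF3 and SRSF7. PRPF8, SNRPD1, SNRPE and SRSF3 were thus kept at both days. At D6, SNRPD2 went to -0.12 (adjusted p = 0.433), SNRPB to -0.21 (adjusted p = 0.226) and SF3B5 to -0.12 (adjusted p = 0.463). Of the 12 SNRP genes, 4 were lower under the correction at D0 and 4 at D6, with medians of -0.34 and -0.39. The length of SNRPD1 is that of its annotated main transcript, 4858 bp, and its corrected value rests on it.

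**Figure D5:**
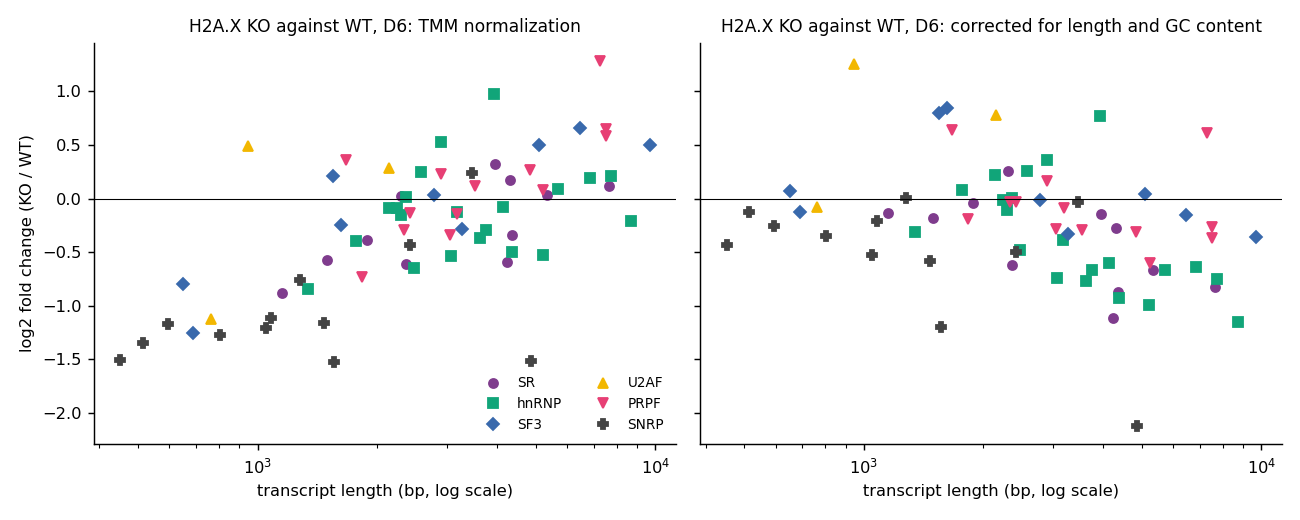
Log2 fold change of H2A.X KO against WT at D6 plotted against the transcript length (log axis, bp) of the 69 genes, with TMM scaling and after the correction for length and GC content. With TMM scaling the points rise with length (Spearman 0.61, n = 69), and after the correction they fall (-0.42, against 0.004 over all genes).

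Maturation of the H2A.X experiment gave few calls. In WT, 0 of 69 genes passed between D6 and D0 by edgeR, with 5 at an unadjusted p below 0.05 and 3 by DESeq2, and 2% of all genes passed (0.839% higher and 1.16% lower). The days did not overlap in 4 genes higher and 22 lower at D6, against 25.3% and 26.1% of all genes. The lowest p values were those of SF3B4 (-0.60, SE 0.171, adjusted p = 0.095), PRPF4 (-0.55, SE 0.158, adjusted p = 0.0969), HNRNPR (-0.43, SE 0.140, adjusted p = 0.131) and U2AF2 (-0.44, SE 0.168, adjusted p = 0.175). In KO, 5 of 69 genes (7.25%) passed, with 1 higher and 4 lower, while 30.9% of all genes passed (14.8% higher and 16.1% lower). The stricter cutoff was met by 0 of 69 by edgeR and by 3.22% of all genes, but by PRPF40B with DESeq2 (-1.73, adjusted p = 0.000107) and without the filter on low counts (-1.74, adjusted p = 0.000403). With the p left unadjusted PRPF40B met it by edgeR too, as did 7.28% of all genes. In the other 8 comparisons 0 of 69 met this unadjusted cutoff by edgeR. Of all genes it was met by 3.88% between H2A.X KO and WT at D0, by 1.18% between days in H2A.X WT and by 1.44% in the H2A.X interaction. In the BAZ1B experiment it was met by 1.09% and 1.27% between KO and WT at D0 and D6, by 12.3% and 12.2% between days in WT and KO, and by 0.36% in the interaction. The days did not overlap in 15 genes higher and 10 lower at D6, against 23.7% and 25.2% of all genes. PRPF40B went from 82.0, 60.1 and 78.9 normalised counts at D0 to 26.6, 11.4 and 27.995 at D6 (-1.74, SE 0.367, adjusted p = 0.00592). PRPF4 went from 1466, 1456 and 1481 to 1064, 959 and 1216 (-0.44, SE 0.128, adjusted p = 0.0252), and PRPF19 from 4302, 4135 and 4282 to 2987, 2658 and 3589 (-0.46, SE 0.140, adjusted p = 0.0304). All D6 libraries of these PRPF genes lay below all D0 libraries. HNRNPH2 fell from 2301, 1780 and 2049 to 1370, 1482 and 1618 (-0.46, SE 0.146, adjusted p = 0.0382), and HNRNPH3 rose from 4766, 4453 and 4616 to 5866, 6057 and 5853 (0.36, SE 0.116, adjusted p = 0.0377). All 5 also passed in WT cells of the BAZ1B experiment with the same sign, where 68.9% of all genes passed, 33.5% higher and 35.4% lower. They were 100% of these calls and 13.2% of the 38 there, and the same overlap was not counted over all genes. No library is shared between these comparisons. With the replicate number as a block, all 5 passed again in H2A.X KO, and HNRNPA1 passed as a sixth (0.38, SE 0.102, adjusted p = 0.0176). Scaling by total counts gave 6 genes, all lower, while 1115 of all 13236 genes were then higher and 2737 lower. The count was 1 without KO replicate 1 or 3 at D0, 2 without replicate 2, 1 without replicate 1 or 2 at D6 and 12 without replicate 3 at D6, which lacks the mark Redo.

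The same lists of partner proteins were compared between H2A.X KO and WT. Of all genes, 18.4% were higher and 16.7% lower at D0, and 22.2% and 20.9% at D6. The lists were read with TMM scaling only, without the correction for length and GC content. Over all genes these changes ran with transcript length (Spearman 0.54 at D0 and 0.60 at D6). Genotype and the mark Redo can hardly be told apart in them. All 8 LSM proteins, small relatives of the Sm proteins that form the ring of U6 and of mRNA decay, were lower at D0 and at D6, led at D6 by LSM7 (-1.75). Of the 16 tested SNRNP proteins and partners, 2 were higher and 8 lower at D0, led by SNRNP200 (1.09), the large helicase of U5, and SART1 (-0.96), and 2 were higher and 9 lower at D6, led by SNRNP200 (1.06) and SNU13 (-1.02). Of 14 SR protein partners, 5 were higher and 1 lower at D0, led by the large scaffold SRRM2 (1.51) and the kinase CLK3 (-0.94), and 5 higher and 0 lower at D6, led by SON (1.23). Of the U2 partners, 0 of 12 were higher and 5 lower at D0 (RBM17 -0.89), and 3 higher and 3 lower at D6 (U2SURP 0.66, PUF60 -0.82). Of the 20 catalytic and PRPF19 complex proteins, 4 were higher and 7 lower at D0 (CDC40 0.94, CWC15 -0.79), and 5 higher and 6 lower at D6 (CDC40 1.22, BUD31 -1.12). Of 5 exon junction proteins, 0 were higher and 3 lower at D0 (MAGOH -0.95), and 1 higher and 3 lower at D6 (CASC3 0.48, MAGOH -1.02). Of 26 other regulators, 6 were higher and 6 lower at D0 (PTBP3 0.97, RALY -0.69), and 8 higher and 3 lower at D6 (MBNL3 1.90, PCBP2 -0.70).

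Cell type markers moved with genotype and day in both experiments, and their part in the results on splicing genes was not tested. In H2A.X KO at D0, 9 of 12 erythroid genes were lower than in WT, with summed levels of 12670 to 16730 CPM (counts scaled to library size) in KO and 24730 to 33720 CPM in WT, and at D6 3 were higher and 2 lower, with sums of 44260 to 74450 CPM and 38520 to 65030 CPM. Of 5 tested markers of mast cells and eosinophils, 3 were higher in KO at D0, where all 8 markers summed to 209.3 to 419.1 CPM in KO and 103.6 to 139.7 CPM in WT, and 2 were lower at D6, with 3.08 to 13.5 CPM and 144.6 to 231.5 CPM. CPA3, EPX, HDC and CLC had at most 3 reads in each H2A.X WT library. Of 10 proliferation genes, 2 were higher and 3 lower in KO at D0, and 5 higher and 1 lower at D6. The 1 tested megakaryocyte marker was higher in KO at D0 (2.39), with sums over the list of 32.7 to 75.6 CPM in KO and 8.71 to 9.66 CPM in WT, and so was the 1 tested marker of monocytes and granulocytes (4.28). In BAZ1B KO at D6, 4 of 12 erythroid genes were lower than in WT, with sums of 33800 to 39870 CPM in KO and 40070 to 46020 CPM in WT, which did not overlap, and the 1 tested megakaryocyte marker was lower (-1.59). At D0, 1 erythroid gene was higher and 2 lower in BAZ1B KO, with sums of 8076 to 8570 CPM against 6997 to 7759 CPM in WT, and 2 of 6 tested markers of mast cells and eosinophils were higher. During maturation of BAZ1B WT cells, the 12 erythroid genes and 8 of 10 proliferation genes rose, while all 6 tested markers of mast cells and eosinophils fell, from a sum of 466.8 to 508 CPM at D0 to 29.98 to 40.8 CPM at D6.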

How the data were processed

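RNA-Seq counts of HUDEP-2 cells were analysed: 10 libraries of the H2A.X experiment and 12 of the BAZ1B experiment. The raw counts per gene are as deposited. The authors aligned reads to hg38 and counted them with featureCounts and the GENCODE 31 annotation, and the submitters' notes name STAR 2.7.0f, Subread 1.6.4 and DESeq2 1.22.1. The labels and the study's methods name different library kits and read lengths, so whether the counting used strand is uncertain and genes that overlap on opposite strands cannot be told apart. The knockout guides flank the H2A.X coding region and the first exon of BAZ1B.

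In each experiment genes were filtered with filterByExpr (minimum count 10, minimum total 15), scaled by TMM and fitted with edgeR 4.0.16 (R 4.3.3) (quasi-likelihood test), each combination of genotype and day being 1 group. P-values were adjusted by Benjamini-Hochberg over all genes. RPKM values use annotated main transcripts of GENCODE. Libraries of 1 experiment differed beyond counting noise in every pair of replicates. The model was tested on simulated data with known changes. For KO against WT at D0, it recovered 35 of 100 log2 fold changes of size 1 in the H2A.X design and 100 of 100 in the BAZ1B design. Of changes of size 2, it recovered 99 of 100 and 100 of 100. In the simulated H2A.X design 100 genes of each size changed among 12850, and all genes shared 1 spread. In the data 35.1% of all genes passed between H2A.X KO and WT at D0. The simulation therefore cannot tell how often changes of size 1 were missed in the H2A.X experiment. Alternatives were other scalings, no filter, DESeq2 1.42.0, a correction for length and GC content, the replicate as a block, stricter cutoffs and leaving out each library.

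The column names number the KO libraries as the study's figure legends number KO subclones. Same-numbered KO libraries were therefore taken as pairs, but only in the alternative with the replicate as a block and not in the main fit. Their deviations from the group means correlated between D0 and D6 at 0.324 to 0.603 (H2A.X, 10165 genes) and 0.165 to 0.642 (BAZ1B, 10923 genes). KO libraries with different numbers were at -0.496 to 0.082 (H2A.X) and -0.609 to 0.141 (BAZ1B). The lowest pair, at 0.165, was BAZ1B KO replicate 3.

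Named in each comparison and class are up to 3 members with the lowest adjusted p in each direction or, where none passed, the one with the lowest p, with SF3B1, SRSF2, U2AF1 and PRPF8 always, the extremes of level per length in each class, 1 gene per direction for each list of partners, and cautions. The values of 1 member that the rule names are not reported here, though it is in the counts. The members and lists were chosen with earlier results of these data known.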

Additional observations from a re-analysis of the deposited data

Results flagged for a closer look

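In WT cells, 5 of 69 splicing genes (7.25%) had opposite log2 fold changes from D0 to D6 in the 2 experiments without overlap, with every D6 library on one side of the D0 libraries in one experiment and on the other side in the other. The same held for 7.59% of the 12870 genes tested in both experiments, and the difference between the experiments was not tested. HNRNPK had a log2 fold change of -0.23 in the H2A.X experiment and 0.18 in the BAZ1B experiment. HNRNPLL was at 0.24 and -0.53, HNRNPUL1 at -0.28 and 0.12, SRSF10 at -0.10 and 0.05, and SRSF8 at -0.32 and 0.20. In the H2A.X experiment none of the 5 passed the test in WT cells by edgeR, and each day has 2 WT libraries there. In the BAZ1B experiment HNRNPK, HNRNPLL and SRSF8 passed in WT cells, and HNRNPUL1 (adjusted p = 0.0574) and SRSF10 (adjusted p = 0.154) did not.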

How the results depend on the processing

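The p-values rest on 2 or 3 libraries per group, and leaving out WT replicate 2 of the H2A.X experiment at either day left 0 calls between genotypes at that day. A stricter cutoff (adjusted p below 0.001 and a log2 fold change beyond 1.5 in either direction) left 0 splicing genes in each of the comparisons by edgeR, and 1, PRPF40B, between days in H2A.X KO by DESeq2 and without the filter. With the p unadjusted, an alternative chosen after seeing the data, it left 3 in H2A.X KO against WT at D6, 1 between days in H2A.X KO and 0 in each of the others. For H2A.X KO against WT, scaling by total counts left 11 at D0, and without the KO libraries marked Redo, an alternative chosen after seeing the data, 0 passed at D6. Between days in H2A.X WT, DESeq2 called 3, the replicate block 1, and the length and GC correction with the block 2. Between days in H2A.X KO, DESeq2 called 8, no filter 1, the length and GC correction 10 and that correction with the block 14. For BAZ1B KO against WT at D6, upper-quartile scaling and total counts each left 2, DESeq2 called 10, the correction 16 and with the block 15. For the interaction of genotype and day, DESeq2 called 1 gene with H2A.X and 2 with BAZ1B, and the replicate block called 1 with BAZ1B.

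Leaving out each library in turn gave 0 to 32 called genes for H2A.X KO against WT at D0, 0 to 35 at D6 and 1 to 12 between days in H2A.X KO. It gave 0 to 3 for BAZ1B KO against WT at D6, 31 to 34 and 34 to 38 between days in BAZ1B WT and KO, and 0 to 1 for the BAZ1B interaction.

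Directions turned under the length and GC correction, without and with the block. At D0 of H2A.X this gave -0.24 and -0.27 for SF3B1, and -0.14 and -0.24 for PRPF4B. At D6 it gave -0.15 and -0.185 for SF3B1, -0.36 and -0.46 for SF3B3, 0.074 and 0.089 for SF3B6, and -0.27 and -0.40 for PRPF4B. For HNRNPA0 between days in BAZ1B WT it gave 0.008 and 0.0085. Under total counts, the changes with maturation in BAZ1B WT turned to -0.007 for SRSF11, -0.0027 for SF3A2 and -0.018 for SF3B3, and in BAZ1B KO to -0.0044 for SRSF3, -0.024 for SRSF11, -0.0905 for SRSF10, -0.028 for SF3B2 and -0.035 for SNRPC. The cause was not tested.

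Of the called values of named genes, the block kept 95 past the threshold and ended 2, SRSF10 between days in BAZ1B KO (adjusted p = 0.0661) and SRSF3 in BAZ1B KO against WT at D6 (adjusted p = 0.072). It added SRSF2 in H2A.X KO against WT at D6 (-0.56, adjusted p = 0.0236). Same-numbered WT and KO libraries share only a number.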

Other observations

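During maturation of BAZ1B KO cells, in which 33.2% of all genes rose and 34.5% fell, 14 of 20 proteins of the catalytic step and the PRPF19 complex rose and 2 fell, led by CWC27 (0.55). Of 26 other regulators of alternative splicing, 13 rose and 5 fell, led by RBM38 (1.89) and CELF2 (-3.06). Of 14 SR protein partners, 5 rose and 4 fell, led by the kinases CLK3 (1.18) and SRPK2 (-1.25), and of 5 exon junction proteins 4 fell, led by EIF4A3 (-0.36). In the test of the interaction of genotype and day, which 2.47% of all genes passed, MBNL2, an RNA-binding splicing regulator, was the gene of all 7 lists that passed (-0.67, SE 0.134, adjusted p = 0.0225 by edgeR).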
